A study of Mus musculus with 2 samples.

Results

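The regions described here are the tissue-specifically transcribed regions (TSTRs) that lie within 100 kb of an annotated transcript start of 10 limb patterning transcription factor genes: Lmx1b, Msx1, Msx2, Pitx1, Tbx4, Prrx1, Shox2, Twist1, Meis1 and Meis2. A TSTR is a stretch of the genome where sequenced RNA reads were enriched, that lies outside the gene and transcript annotation the authors used, and where the read counts of heart and limb were called different. Distance from these genes chose the regions, while the genes themselves were picked with earlier results of these data known. The regions were 38 of the 1912 deposited TSTRs: 35 of the 1078 regions of the limb list and 3 of the 834 regions of the heart list. The RNA came from the heart and the limb of CD-1 strain mouse embryos at embryonic day 11.5 (E11.5), the tissue of several embryos being pooled into 1 library for each tissue. With 1 library per tissue no value has a replicate error, no test between the tissues is possible, and the intervals below are exact 95% intervals that cover the counting of reads only. Fewer cells that make an RNA and less of it per cell cannot be told apart in such bulk tissue, and the labels do not say whether forelimbs, hindlimbs or both were taken.

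Patterning of the limb bud rests on transcription factors that are laid down in domains along its axes, and many of their genes are switched on by enhancers that lie outside the gene. Active enhancers are themselves often transcribed into short noncoding RNA, which is why intergenic RNA was measured in these tissues. Lmx1b is the LIM homeodomain factor that gives limb mesenchyme its dorsal identity, and Twist1 is a basic helix-loop-helix factor of early mesenchyme. Prrx1 is a paired-type homeodomain factor of limb mesenchyme, Msx1 and Msx2 are homeodomain factors that respond to BMP signals, and Shox2 is a homeodomain factor needed for the proximal limb skeleton and for the pacemaker of the heart. Pitx1 and Tbx4 act in the hindlimb, and Meis1 and Meis2 are homeodomain cofactors that mark the proximal limb. A transcribed region near one of these genes was not shown here to act on it.

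The sequences that carry the main contrasts are given first, from the mm9 genome (NCBI build 37), as the plus strand, 5′ to 3′. Each is the central 300 bases of a TSTR, or the whole TSTR where that is shorter. Capitals mark matches, on either strand, to 6 short core motifs that were searched for: TAATTA (homeodomain), TAATCC (Pitx), TGACAG (Meis), AGGTGT (T-box), and the E-boxes CAGATG and CATATG. The first 2 are regions with hardly any heart reads, namely the stronger of the pair near Msx1 (chr5:38210675-38210974) and the strongest near Prrx1 (chr1:165288991-165289290).
Msx1 limb TSTR past the gene: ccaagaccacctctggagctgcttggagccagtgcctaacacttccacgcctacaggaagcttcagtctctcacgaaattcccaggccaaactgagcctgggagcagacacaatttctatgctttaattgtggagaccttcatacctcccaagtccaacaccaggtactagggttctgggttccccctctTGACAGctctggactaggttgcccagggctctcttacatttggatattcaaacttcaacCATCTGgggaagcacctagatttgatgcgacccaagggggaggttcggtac
Prrx1 strongest limb TSTR: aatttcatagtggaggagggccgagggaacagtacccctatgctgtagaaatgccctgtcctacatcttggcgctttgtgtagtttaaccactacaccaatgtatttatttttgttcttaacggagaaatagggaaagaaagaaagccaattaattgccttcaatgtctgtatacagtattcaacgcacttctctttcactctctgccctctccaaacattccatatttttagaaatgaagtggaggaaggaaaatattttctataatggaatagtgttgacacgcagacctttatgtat
The other 3 are regions with reads in both tissues. They are the limb TSTR with the highest limb RPKM near Twist1 (chr12:34656057-34656356), the whole heart TSTR near Twist1 (chr12:34649141-34649362) and the heart TSTR before Meis1 (chr11:18920277-18920576).
Twist1 strongest limb TSTR: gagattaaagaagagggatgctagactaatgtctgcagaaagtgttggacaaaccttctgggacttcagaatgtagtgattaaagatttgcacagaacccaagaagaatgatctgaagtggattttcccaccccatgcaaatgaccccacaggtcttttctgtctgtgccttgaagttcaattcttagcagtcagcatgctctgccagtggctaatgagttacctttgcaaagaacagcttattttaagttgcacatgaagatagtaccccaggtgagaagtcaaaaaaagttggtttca
Twist1 heart TSTR: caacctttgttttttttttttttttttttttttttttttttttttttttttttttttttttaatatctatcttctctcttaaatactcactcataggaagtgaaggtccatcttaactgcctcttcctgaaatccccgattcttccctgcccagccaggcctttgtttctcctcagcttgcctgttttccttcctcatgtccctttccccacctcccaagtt
Meis1 heart TSTR: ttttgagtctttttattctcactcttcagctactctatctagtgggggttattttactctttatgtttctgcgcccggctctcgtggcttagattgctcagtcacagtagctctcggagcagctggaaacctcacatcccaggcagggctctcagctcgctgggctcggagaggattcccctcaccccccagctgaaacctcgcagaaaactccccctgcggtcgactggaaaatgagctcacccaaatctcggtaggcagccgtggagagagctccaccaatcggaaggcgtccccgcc
The Msx1 window held 1 Meis core and 1 E-box. None of the 6 motifs occurred in the Prrx1, Twist1 and Meis1 windows. The Twist1 heart TSTR contains a run of 52 T in a row. Runs of a single base of at least 20 occurred in 56 of the 834 heart TSTRs (6.71%), in 54 of the 1078 limb TSTRs (5.01%), and in 3 of the 35 limb TSTRs of the members.

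Of the 10 genes, 8 had a TSTR within 100 kb and 6 had a limb TSTR. Twist1 had 14 limb TSTRs, Lmx1b had 9, Prrx1 had 6, and Msx1, Shox2 and Tbx4 had 2 each. The 3 heart TSTRs were divided among Twist1, Meis1 and Meis2, so Meis1 and Meis2 had a heart TSTR and no limb TSTR. No TSTR of either list was found near Msx2 or Pitx1. Among the 22238 annotated protein-coding genes, 9.07% had a limb TSTR and 4.05% had a heart TSTR within the same distance. Only 2 protein-coding genes had more limb TSTRs than Twist1, the highest number being 31, whereas 8 had more than Lmx1b and 18 more than Prrx1, ranks that are descriptions because of how the genes were picked. A pair of limb TSTRs was less rare, since 490 protein-coding genes had at least 2.

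**Figure D1:**
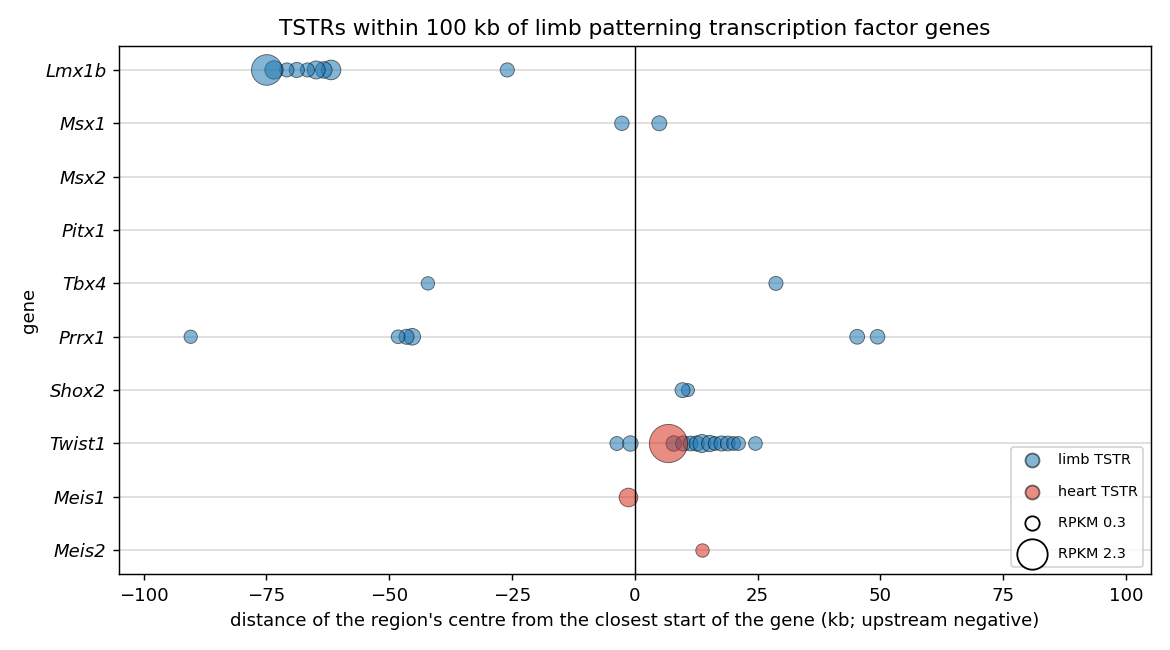
Position of each of the 38 TSTRs along the horizontal axis, as the distance in kb of its centre from the closest transcript start of the gene (upstream negative), with 1 row per gene; blue circles are limb TSTRs, red circles are heart TSTRs, and the circle area grows with the RPKM of the list's own tissue. The Lmx1b regions all lie upstream, 12 of the 14 Twist1 limb regions lie downstream, and the rows of Msx2 and Pitx1 are empty.

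None of the 38 regions overlapped an annotated gene, against 112 of all 1912 TSTRs, a low share because the authors had removed annotated regions. Upstream of the closest start of the member lay 17 of the limb TSTRs, and 18 lay downstream. Only 7 of the 35 were within 10 kb of a member's start. Against the nearest annotated gene of any kind, 32 of the 38 regions lay past its 3′ end, 10 of them within 5 kb, and 6 lay before its start. Most of the 32 belong to the groups near Twist1 and Lmx1b. Neither this count nor that within 10 kb was made over all TSTRs, so both only describe these regions. A member was the closest protein-coding gene for 33 regions. The exceptions were 4 regions upstream of Prrx1, which were closer to Gorab, and 1 region upstream of Tbx4, which was closer to Gm11444.

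The lists were drawn up by comparing the same pair of libraries, so a limb TSTR had to have more limb reads and this direction is no finding. How far apart the tissues were did vary. Of the 35 limb TSTRs near the members, 10 had 0 heart reads (28.6%), against 12.1% of the whole limb list. Without the Lmx1b regions the number was 3 of 26 (11.5%), close to the share of the list. At least 4 times more limb than heart signal was present in 30 of the 35 (85.7%), against 50.3% of the limb list. The median limb to heart ratio was 7.39 for the members and 4.04 for the limb list, where a heart count of 0 was set to 3 reads. With 1 read in its place the medians were 13.9 and 4.10, and for regions of at least 20 limb reads they were 11.4 and 3.19. The study chose its regions by a two-proportion z-test, with library totals that were not used here. The same formula at the totals that the files imply (two-sided p under 0.01) was passed by 34 of the 35 limb members and by 99.7% of the limb list. In the heart list it was passed by none of the 3 members and by 78.5% of the list.

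These counts rested on different genes. Without the 14 Twist1 regions the median ratio of the remaining 21 limb TSTRs was 21.2, and without the 9 Lmx1b regions that of the remaining 26 was 5.78. Abundance did not set the members apart, since their median limb RPKM (reads scaled by the length of the region and the total of the library) was 0.344 and that of the limb list was 0.346. Their median heart RPKM was 0.0204, compared with 0.087 for the list. The members were long, with a median of 1010 bp against 449.5 bp. Only 1 of them, near Lmx1b, was in the top 10% of the limb list by limb RPKM.

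**Figure D2:**
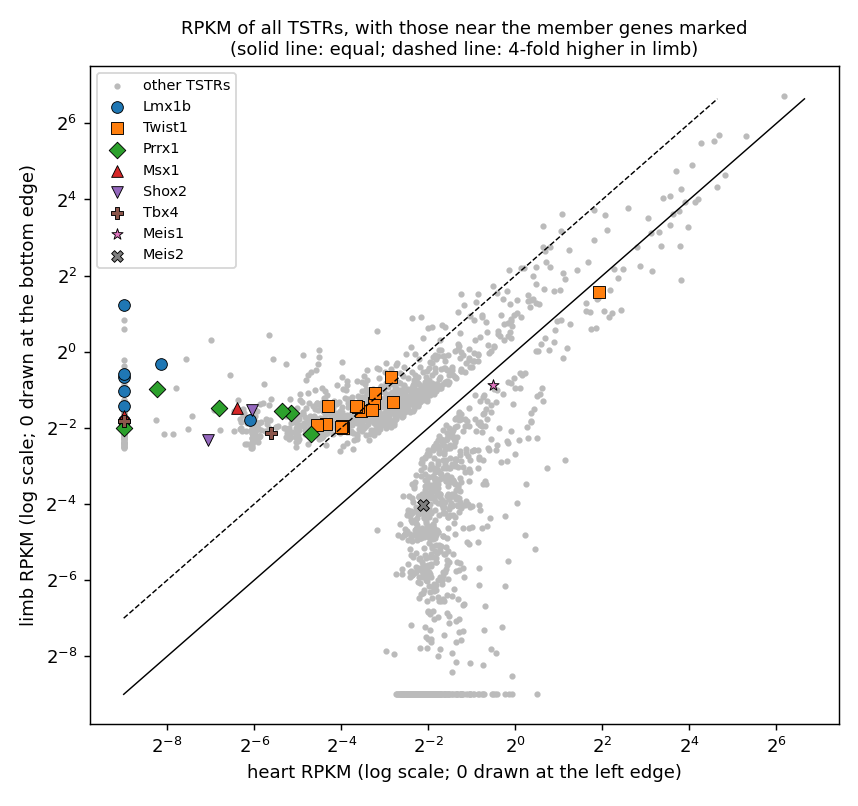
Heart RPKM (horizontal) and limb RPKM (vertical) of all 1912 TSTRs on log axes, with values of 0 drawn at the edge; grey points are other TSTRs, coloured symbols the 38 regions near the member genes, the solid line marks equal RPKM and the dashed line 4-fold more in limb. Lmx1b regions lie along the left edge, most of them at a heart RPKM of 0, and Twist1 limb regions scatter around the dashed line.

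Near Lmx1b (chr2:33416485-33496031, minus strand) all 9 TSTRs were in the limb list, all lay upstream, and heart reads were almost lacking. Summed over the 9 regions, which cover 9159 bp, the limb library had 1619 reads and the heart library had 2. The summed ratio was 935, with an interval from 258.5 to 7728. No heart read was counted in 7 of the regions and 1 read in each of the other two.

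In 8 of these regions, packed into the 14.6 kb at chr2:33557232-33571827, the reads came to 1602 in limb and 1 in heart. This group starts 61.2 kb upstream of Lmx1b. Limb RPKM varied along it, from 0.803 in the region nearest to Lmx1b to 0.493 and 0.632 in the next pair, then 0.283, 0.370 and 0.285 in 3 weaker ones, and 0.670 and 2.35 in the last pair. The most abundant region (chr2:33570063-33571827, 1764 bp) had 797 limb reads and 0 heart reads. Its limb RPKM was 307-fold higher than in heart, counted against a floor of 3 heart reads, or 0.00765 RPKM in a region of this length. The exact interval of its ratio starts lower, at 249, and has no upper end. This region ranked 55 of 1078 in the limb list by limb RPKM and was the longest region near any member. Its distal end is 54 bp from the annotated 3′ end of 9430024E24Rik, a noncoding transcript on the minus strand, and in all 8 regions the nearest annotated gene was this transcript.

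The other regions with 0 heart reads near Lmx1b had 146, 206, 41, 20, 19 and 178 limb reads. Against the same floor their ratios ran from 7.32-fold to 79.3-fold, set by the number of limb reads alone. The exact intervals start lower, at 5.39 to 63.9, and have no upper end. The region closest to the gene (chr2:33521823-33522129), 25.8 kb upstream and apart from the group, had 17 limb reads and 1 heart read, a ratio of 19.6 with an interval from 3.08 to 820.7. The region at the near end of the group (chr2:33557232-33558494) had 195 limb reads and 1 heart read, a ratio of 225.3 (39.96 to 8943). All 9 regions thus had more limb than heart reads by 4-fold or more, and where 1 heart read was present the ratio was known only within wide limits.

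The study designed quantitative PCR primers within the group, and the amplicons of 2 of them are shown with the primer ends in capitals because they fix the exact stretch of RNA that could be assayed. One (chr2:33561464-33561610, 147 bp) lies in the region with 206 limb reads and the other (chr2:33558074-33558182, 109 bp) in the region with 195. A further primer pair, not shown, lies in the region with 797 limb reads. The study reported RT-PCR of a panel of TSTRs on independently collected tissue pools, with the tissue difference seen in every case. That panel was drawn at random from the most strongly different regions only. No result for a single Lmx1b amplicon was used here.
Lmx1b amplicon in the region with 206 limb reads: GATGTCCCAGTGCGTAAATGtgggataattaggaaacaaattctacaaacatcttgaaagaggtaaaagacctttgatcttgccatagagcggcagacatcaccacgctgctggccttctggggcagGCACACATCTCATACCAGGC
Lmx1b amplicon in the region with 195 limb reads: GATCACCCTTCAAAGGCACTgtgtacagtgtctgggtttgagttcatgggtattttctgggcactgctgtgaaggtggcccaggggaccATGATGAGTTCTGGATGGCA

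Near Twist1 (chr12:34642536-34644682, plus strand) the picture was a different one, with many regions and reads in both tissues. The 14 limb TSTRs had 986 limb reads and 274 heart reads over 13694 bp, a ratio of 4.16 (3.63 to 4.77). Heart reads ranged from 3 to 40 per region and limb reads from 14 to 133. The median heart RPKM of 0.0801 was close to the 0.087 of the whole limb list, while the median limb RPKM was 0.356.

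The Twist1 limb regions formed an almost continuous chain on the 3′ side of the gene. Of the 14, 12 lay downstream at chr12:34649844-34667258, a stretch of 17.4 kb, and 11 of these were separated by less than 1000 bp. Another 2 lay upstream. The region closest to the start (chr12:34641036-34642268) ended 268 bp before it, with 93 limb reads and 29 heart reads, a ratio of 3.70 (2.42 to 5.83). The other upstream region (chr12:34638574-34639217) had 33 limb reads and 7 heart reads, a ratio of 5.45 (2.37 to 14.6).

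Ratios of the 14 single regions, the 2 upstream ones included, ran from 2.83 to 7.39 with a median of 4.25. The intervals of 13 of the 14 contained the summed ratio. This says little on how even the ratios were, because the sum is made of these regions and many intervals are wide. The exception (chr12:34651750-34653079), with 96 limb and 15 heart reads, had the highest ratio, 7.39 (4.27 to 13.7). Its neighbour at the start of the chain (chr12:34649844-34651113), with 98 limb and 40 heart reads, had the lowest, 2.83 (1.94 to 4.20). The intervals of this pair did not overlap, by a narrow gap. The pair was picked as the extremes of the 14, so this only describes them. The region with the highest limb RPKM, 0.631 (chr12:34655832-34656581), had 91 limb and 23 heart reads. The longest (chr12:34657076-34658541, 1465 bp) had the most limb reads, 133, and 35 heart reads. A ratio of at least 4 was reached by 9 of the 14, and since the chain sat near that value the count says little about single regions.

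A heart TSTR lay at the head of this chain. It was 222 bp long (chr12:34649140-34649362), 4458 bp past the annotated end of Twist1 and before the first downstream limb TSTR. It had 188 heart reads and 128 limb reads, at 3.81 RPKM in heart and 2.99 RPKM in limb, so its limb RPKM was above that of all limb TSTRs near the members. The limb to heart ratio was 0.787 (0.623 to 0.990). This is the region with the run of T shown above, and the part of that run in its counts was not tested.

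**Figure D3:**
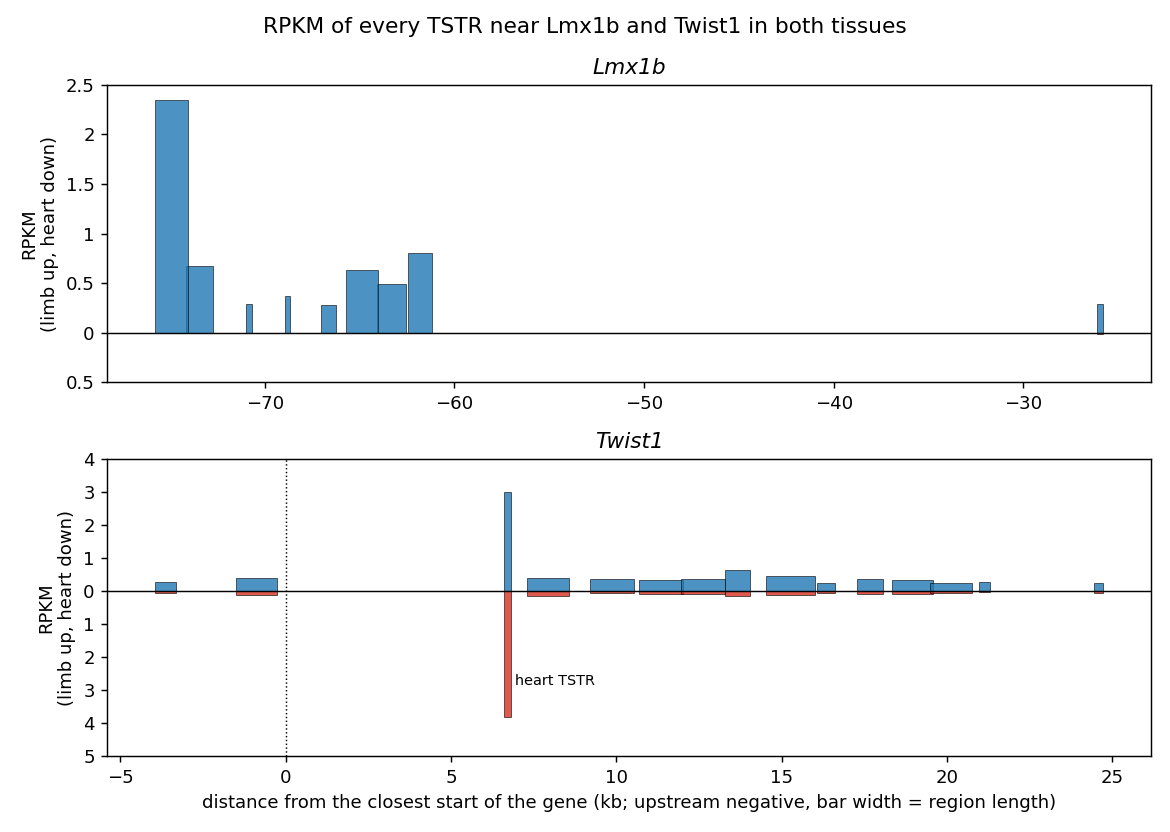
RPKM (vertical axis, limb drawn upward in blue and heart drawn downward in red) of every TSTR near Lmx1b (top) and Twist1 (bottom) against its distance in kb from the closest start of the gene; each bar is 1 region, and its width is the region's length. The Lmx1b bars have almost no downward part, the Twist1 limb bars all have one, and the narrow heart TSTR of Twist1 reaches 3.81 RPKM in heart and 2.99 RPKM in limb.

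Near Prrx1 (chr1:165175247-165243841, minus strand) 6 limb TSTRs held 311 limb reads and 9 heart reads over 4419 bp, a ratio of 39.9 (20.8 to 88.1). They fell into 3 places. Past the 3′ end of the gene, by 995 bp and 5167 bp, were 2 short regions. The nearer one (chr1:165173883-165174252) had 24 limb and 2 heart reads, a ratio of 13.9 (3.44 to 121.0). The farther one (chr1:165169761-165170080) had 20 limb and 2 heart reads, a ratio of 11.6 (2.81 to 101.9).

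The most reads were in 3 adjoining regions upstream of Prrx1 at chr1:165288461-165292594, 44.6 kb or more from its closest start, with 257 limb and 3 heart reads together. The first of these (chr1:165288461-165289820) was the longest near Prrx1, with 132 limb reads and 1 heart read, an RPKM of 0.505 in limb and a ratio of 152.5 (26.9 to 6068). The second (chr1:165289804-165290814) had 70 limb and 2 heart reads, a ratio of 40.4 (10.8 to 340.4). The third (chr1:165291448-165292594) had 55 limb reads and 0 heart reads, a ratio of 21.2 against the floor (interval from 16.65). All 3 were closer to the start of Gorab than to a start of Prrx1.

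The remaining Prrx1 region (chr1:165334126-165334358) lay 90.3 kb upstream and only 354 bp before the start of Gorab, which encodes a Golgi protein. It had 10 limb reads, the minimum for a region to be listed, and 2 heart reads, a ratio of 5.78 (1.23 to 54.2). It was the only limb TSTR of the members that missed the two-sided z-test, and it passed a one-sided one.

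Msx1 (chr5:38211724-38215822, minus strand) had a limb TSTR on either side. The one on the 3′ side (chr5:38210258-38211390) began 334 bp past the end of the gene and had 78 limb and 3 heart reads, a ratio of 30.04 (9.91 to 148.8). The one on the 5′ side (chr5:38218279-38218597), 2457 bp before the start, had 19 limb reads and 0 heart reads, a ratio of 7.32 against the floor (interval from 5.39). Summed, Msx1 had 97 limb and 3 heart reads and a ratio of 37.4 (12.4 to 184.3). The RPKM of both in limb was similar, 0.358 and 0.310. Both overlap elements that the study lists as tested in transgenic embryos. The element at the 3′ region was annotated as active in the neural tube, and the one at the 5′ region in limb and other tissues.

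Shox2 (chr3:66775649-66785693, minus strand) had both of its limb TSTRs past the 3′ end. The region 2870 bp away (chr3:66772481-66772779) had 20 limb reads and 1 heart read, a ratio of 23.1 (3.69 to 957.6), and a limb RPKM of 0.349. The region 3525 bp away (chr3:66770917-66772124) had 47 limb and 2 heart reads, a ratio of 27.2 (7.11 to 230.7), and a limb RPKM of 0.202. The heart reads of the 2 regions together were 3. Both regions come from the limb list, so this says nothing on the part of Shox2 in the heart.

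Tbx4 (chr11:85699924-85729599, plus strand) had 1 limb TSTR on either side. The upstream one (chr11:85657372-85658254), 41.7 kb before the start, had 39 limb and 4 heart reads, a ratio of 11.3 (4.06 to 43.4), and lay 1922 bp past the end of Tbx2, the neighbouring T-box gene. The downstream one (chr11:85738871-85739148), 28.6 kb from the closest start, had 15 limb reads and 0 heart reads, a ratio of 5.78 against the floor (interval from 4.14). Summed, the ratio was 15.6 (5.75 to 59.3). Both regions were also within 100 kb of Tbx2, so their nearness does not single out Tbx4.

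The heart TSTRs of Meis1 and Meis2 differed in both depth and position. That of Meis1 (chr11:18919986-18920867) lay 1025 bp before a start of the gene and had 137 heart and 93 limb reads, at 0.699 RPKM in heart and 0.548 RPKM in limb. The limb to heart ratio was 0.784 and its interval, 0.596 to 1.03, included 1. That of Meis2 (chr2:115684912-115685167) lay 3633 bp past the end of the gene and had 13 heart and 3 limb reads, at 0.229 RPKM and 0.0611 RPKM. Its ratio was 0.267 (0.0487 to 0.970).

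For 2 of the 3 heart TSTRs the difference between the tissues was small for the list. In the heart list, 24 of 834 regions, itself included, had a limb to heart ratio at least as high as the Meis1 region, and 22 at least as high as the Twist1 region. For the Meis2 region the number was 327. At the totals implied by the files, 222362239 reads in heart and 192488089 in limb, none of the 3 passed the z-test. With the same total for both libraries, which compares raw reads, the Meis1 and Twist1 regions passed it and the Meis2 region did not. The implied totals are close to the genome-mappable reads that the study reported, whereas its own z-test left ribosomal regions out of the totals. All ratios here rest on the implied totals.

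**Figure D4:**
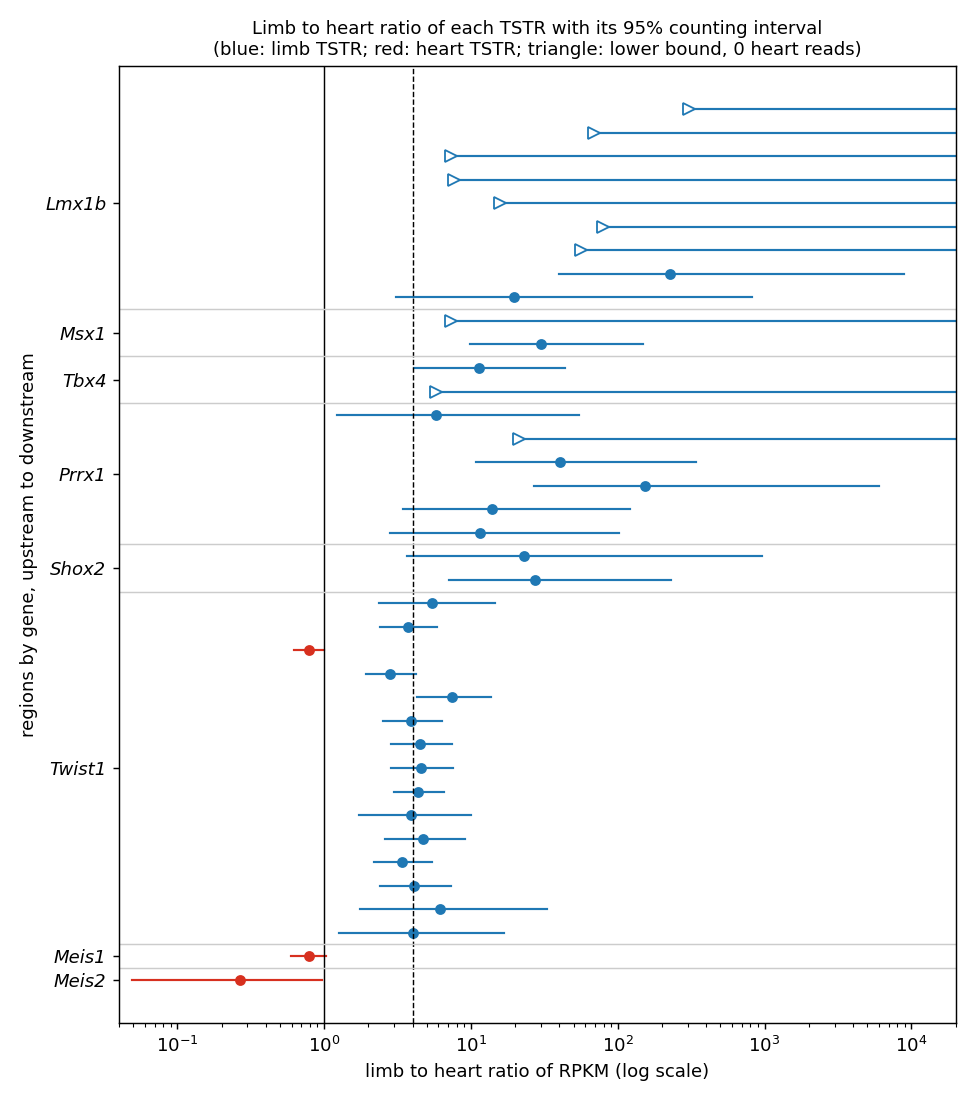
Limb to heart ratio of RPKM (log axis) of each of the 38 TSTRs, grouped by gene and ordered from upstream to downstream. Circles are ratios with exact 95% intervals of counting error. Open triangles are regions with 0 heart reads, drawn at the ratio against the floor. The exact intervals of these regions start below the triangles and have no upper end. The solid line is a ratio of 1 and the dashed line a ratio of 4. Blue limb TSTRs of Twist1 cluster around 4.16, those of the other 5 genes extend further to the right, and the red heart TSTRs lie below 1.

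Between genes, the counting intervals of the summed limb TSTR ratios of Twist1 and of Lmx1b did not overlap those of the rest. These are sums over regions that were each listed for having more limb reads, so they compare listed regions and not whole loci. The Twist1 sum leaves out the heart TSTR at the head of its chain, with 188 heart and 128 limb reads, which would lower the ratio. The intervals also treat reads as independent. The interval of Twist1, 3.63 to 4.77, lay below those of the other 5 genes with limb TSTRs. The interval of Lmx1b, 258.5 to 7728, lay above those of Twist1, Msx1, Shox2, Tbx4 and Prrx1. The intervals of Prrx1, Msx1, Shox2 and Tbx4 overlapped one another, with sums of 9, 3, 3 and 4 heart reads. All 21 limb TSTRs of genes other than Twist1 had at least 4 times more limb signal as a point value, the whole interval lay above 4 in 16 of them, and none had more than 4 heart reads. The order of the genes by mean limb RPKM was Lmx1b at 0.686, Twist1 at 0.356, Msx1 and Prrx1 at 0.334 each, Shox2 at 0.276 and Tbx4 at 0.256. Regions of 1 gene share a locus and are not replicates, and 5 neighbouring pairs overlapped by some bases, so that a read may count in both. Without 1 region of each such pair the summed ratios were 748 (206.6 to 6183) for Lmx1b, 39.8 (19.0 to 99.98) for Prrx1 and 4.19 (3.62 to 4.87) for Twist1, and the order of these intervals against the other genes was the same.

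The nearest limb TSTR to a start of Pitx1 lay at 125 kb, outside the limit, at chr13:56062849-56064540. It had 167 limb reads and 0 heart reads and a limb RPKM of 0.513, and its closest protein-coding gene was H2afy. Msx2, the paralog of Msx1, had no limb TSTR within 1723 kb and no heart TSTR within 5217 kb. The nearest limb TSTR was at 1082 kb for Meis1 and at 1117 kb for Meis2. Other regions just outside the limit were 2 heart TSTRs at 133 kb and 153 kb from Meis1, with 49 heart and 22 limb reads and with 10 heart reads and 1 limb read, and a limb TSTR at 239 kb from Shox2 with 14 limb reads and 0 heart reads. The farthest regions inside it were the Prrx1 region at 90.3 kb and the strongest Lmx1b region at 74.0 kb. The files list only regions that the authors kept after a minimum of 10 reads and their own comparison of the tissues, so a gene without a listed region may still have transcribed regions nearby.

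The members' windows resembled the rest of the limb list in base composition, with a median G+C content of 42.7% against 43.0%. By gene the median ran from 37.7% near Shox2 to 59.8% near Tbx4. The E-box CAGATG occurred in 8 of the 35 windows (22.9%) and in 17.4% of all limb TSTR windows of the same length, and CATATG in 4 (11.4%) against 7.51%. TAATTA occurred in 5 (14.3%) against 10.02%, TAATCC in 4 (11.4%) against 9.18%, TGACAG in 6 (17.1%) against 19.3%, and AGGTGT in 2 (5.71%) against 12.4%. These are counts of letters on either strand, and with so few windows each share moves by several percentage points with a single region.

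The wider set of limb development genes was looked up in the same way. Of 49 further genes, 10 had a limb TSTR within 100 kb and none had a heart TSTR. Over all protein-coding genes the shares were 9.07% for limb and 4.05% for heart. With so low a share for heart, the lack of a heart TSTR among 49 genes is no finding. Among close paralogs and partners of the members, 3 of 10 had one. Tbx5, the forelimb T-box gene that is also required in the heart, had 8 limb TSTRs with 672 limb and 370 heart reads, Prrx2 had 1 with 31 limb and 3 heart reads, and Twist2 had 1 with 13 limb and 0 heart reads. Among secreted signals of the limb bud, Bmp2 was the only 1 of 12, with 15 limb reads and 1 heart read. Among other limb transcription factors, 6 of 27 had a limb TSTR, among them Tbx15 with 3 regions and 107 limb reads against 0 heart reads, Tbx2 with the 2 regions it shares with Tbx4, and Lhx9, Tfap2a and Osr1 with 1 each. The files hold no counts of genes, so the tissue labels could be checked only by regions. Of 12 heart genes, 9 had a heart TSTR, against 4.05% of all protein-coding genes, and 1 had a limb TSTR. Nkx2-5 led with 10 heart TSTRs. Myh6 and Myh7 had the same entries, 2 heart TSTRs with 99 heart and 2 limb reads, so they do not count as separate cases.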

How the data were processed

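Ribosomal-depleted total RNA was sequenced, 1 pooled library per tissue. The authors filtered 50 bp reads (CASAVA 1.8), aligned them to mm9 with Bowtie2, left out repetitively mapped reads, extended alignments to 200 bp, called enriched regions of at least 10 reads with USeq, removed those overlapping refGene, mRNA or EST annotation, and kept regions that a z-test called different. The authors deposited raw read counts, without strand, and RPKM, the counts relative to region length and library total. Count, RPKM and length imply totals of 222362239 (heart) and 192488089 reads (limb), where a floor of 3 reads is 1.35e-06% and 1.56e-06%.

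Distances were taken from the nearest base of a region to any GENCODE vM1 transcript start on the NCBIM37 genome, the build of the files. Limb to heart ratios are of reads per total, with Clopper-Pearson 95% intervals and 0 heart reads set to 3, and cover counting error only, since PCR reads are not independent molecules. Without replicates, edgeR's quasi-likelihood test and DESeq2 could not be fitted, so no replicated test between tissues was made; the z-test, and edgeR's exact test at an assumed spread, are descriptions of 2 libraries, and a z-test chose the lists. All regions near genes with at most 5 were named, and of the others the heart regions and the limb regions with the highest limb RPKM, closest to the start, longest, in the top 10% or with 0 heart reads; the remaining named regions were chosen after their values were seen. The members and gene lists were chosen with earlier results of these data known. Primer sequences come from the supplementary tables, and no fold change or p-value of the authors was used. Alternatives were other distances, start sets, filters, floors, folds, merging, totals and tests. Scripts ran in Python 3.11.15 (pandas 2.3.3, scipy 1.17.1) and R 4.3.3 (edgeR 4.0.16), and the z-test and intervals were tested on simulated counts.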

Additional observations from a re-analysis of the deposited data

How the results depend on the processing

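Of 45 alternatives, 4 were chosen after seeing the data (a one-sided z-test, and leaving out overlapping regions from the sums of 3 genes). By the limits set, 41 counted as unchanged, but these limits were wide and took in the shifts of the median given below. None reversed a direction, which the lists had fixed beforehand. Leaving out regions that overlap a gene could change nothing, since none of the 38 did. The tally is therefore a description and no measure of robustness. The number of TSTRs near the members fell from 38 to 21 when regions of a gene within 1000 bp were merged, and to 13 when they were merged within 10000 bp. The number of limb TSTRs with at least 4-fold more limb RPKM fell from 30 to 16 when the limit was 8-fold. The number of members past the z-test fell from 34 to 20, all of them limb TSTRs, with edgeR's exact test at an assumed coefficient of variation of 0.4, a value that these data cannot estimate. Within 50 kb there were 29 regions and within 200 kb 41, the latter adding Pitx1 as the seventh gene with a limb TSTR. The median limb to heart ratio of the limb members, 7.39, became 13.9 with a floor of 1 read for a count of 0 and 11.4 for regions of at least 20 reads. With the same total for both libraries, 33 of the 35 limb TSTRs and 2 of the 3 heart TSTRs passed the z-test, and one-sided all 35 limb TSTRs did. No paired analysis was possible because each tissue had 1 library, and none could be left out. Depth leaves the ratios of the 10 limb TSTRs with 0 heart reads without an upper limit, and their values depend on the floor.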
